A study of Homo sapiens with 12 samples.

Results

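The 9 genes described here encode proteins that store triglyceride in lipid droplets or release fatty acids from it: G0S2, PNPLA2, ABHD5, PLIN2, PLIN3, HILPDA, DGAT1, DGAT2 and LIPE. They were taken by gene name from a table of 30225 genes, and each name matched 1 entry. The cells were PC9, an EGFR-mutant non-small cell lung cancer line, and every library came from cells in gefitinib at 300 nM, which blocks the EGFR kinase, so all groups share the drug. There were 4 groups of 3 libraries: control and AGR2-knockdown cells (shAGR2 in the labels) after 24 h of gefitinib, and control and AGR2-overexpressing cells (oeAGR2) after 72 h. AGR2 belongs to the protein disulfide isomerases, which help proteins fold in the endoplasmic reticulum. The labels do not describe the constructs, what the control cells carried, whether a population was a clone, or whether the 3 replicates were separate cultures, so p-values measure the spread between these libraries, which may be technical. The direction of the manipulation and the time on the drug go together, and the groups at 24 h and 72 h cannot be compared for AGR2 alone.

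A lipid droplet is a core of neutral lipid, mainly triglyceride and sterol ester, under a single layer of phospholipid and coat proteins such as the perilipins. DGAT1 and DGAT2 add the last fatty acid when triglyceride is made. Breakdown starts with the lipase ATGL, encoded by PNPLA2, which is activated by ABHD5 (CGI-58) and inhibited by the small proteins G0S2 and HILPDA; hormone-sensitive lipase, encoded by LIPE, then acts on the diglyceride. G0S2 is best known from adipose tissue and liver, and HILPDA as a gene induced by hypoxia.

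Values are TPM, a relative transcript abundance scaled by transcript length and to the same total in each library, so that levels of different genes can be set side by side. They hold no read numbers, and the depth behind each value is unknown. Fold changes are ratios of group means of TPM unless called log2, and log2 fold changes come from log2(TPM + 1), which understates the change of genes near or below 1 TPM. A gene is said to rise or fall where limma, fitted over the 15721 genes that reached 1 TPM in 3 or more libraries, gave a Benjamini-Hochberg adjusted p below 0.05. Of the 9 genes 7 were tested; PLIN2 and LIPE were below the filter. The targeted gene followed its labels. AGR2 stood at 32.9, 31.2 and 31.7 TPM in the 24 h controls and at 0.592, 0.658 and 0.769 TPM in the knockdown. At 72 h it stood at 8.67, 7.82 and 7.84 TPM in the controls and at 12.1, 10.7 and 10.7 TPM with overexpression, a 1.38-fold rise (log2 fold change 0.42, limma adjusted p = 0.000325), after a log2 fold change of -4.30 in the knockdown (limma adjusted p = 1.26e-10). The 72 h controls held 3.94-fold less AGR2 than the 24 h controls. Libraries correlated at 0.9718 to 0.9915 within groups, and 36.2% to 47.4% of TPM per library came from the mitochondrial genome. On the log2 scale the median tested gene differed by 0.35 between knockdown and control, by 0.30 between the 72 h and 24 h controls and by 0.025 between overexpression and control, so a change is also given with libraries rescaled to their median gene where that ends or makes a call, turns the sign or moves the log2 value by over 1.5 times. Of the genes that passed in the knockdown, 81.8% were higher as deposited and 49.6% after rescaling; between the control groups these shares were 86.7% and 51.5%. Lung and simple epithelium markers summed to between 2869 and 9820 TPM per library, lowest in the knockdown and highest with overexpression, and 10 of 12 reached 1 TPM in every group. Keratins made up most of this sum. Of 10 tested markers, 2 rose in the knockdown (EPCAM and EGFR) and 6 fell, against 0 and 8 with rescaled libraries. With overexpression 6 rose and the same 2 fell. Over all tested genes 53.6% rose and 11.9% fell in the knockdown (29.4% and 29.9% rescaled), and 29.9% and 25.5% with overexpression. SFTPB, a surfactant protein of alveolar cells, and NAPSA stayed below 1 TPM on average in each group.

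G0S2 (ENSG00000123689, chromosome 1, 209675412 to 209676390, plus strand, GRCh38) and its target lipase PNPLA2 (ENSG00000177666, chromosome 11, 818914 to 825573, plus strand) moved in opposite directions in both comparisons. In the AGR2 knockdown the transcript of the inhibitor rose and that of the lipase fell, and with AGR2 overexpression the inhibitor fell and the lipase rose. PLIN3, a coat protein, moved in the direction of G0S2 in both. The promoter windows of these 3 genes are printed here because these genes moved together or in opposite directions in both comparisons; they run from 250 bases before to 50 bases after the annotated start, 5′ to 3′ on the strand of the gene, from RefSeq on GRCh38.p14. Capitals mark matches to any of 8 motifs searched on both strands, so that GCGTG on the other strand reads CACGC.
G0S2, chr1:209675162-209675461, plus strand: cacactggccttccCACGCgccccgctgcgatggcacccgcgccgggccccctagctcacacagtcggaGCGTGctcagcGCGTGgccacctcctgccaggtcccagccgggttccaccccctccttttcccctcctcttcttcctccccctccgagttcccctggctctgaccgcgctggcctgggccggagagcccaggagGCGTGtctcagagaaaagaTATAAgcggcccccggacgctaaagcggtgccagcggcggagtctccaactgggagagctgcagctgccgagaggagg
PNPLA2, chr11:818664-818963, plus strand: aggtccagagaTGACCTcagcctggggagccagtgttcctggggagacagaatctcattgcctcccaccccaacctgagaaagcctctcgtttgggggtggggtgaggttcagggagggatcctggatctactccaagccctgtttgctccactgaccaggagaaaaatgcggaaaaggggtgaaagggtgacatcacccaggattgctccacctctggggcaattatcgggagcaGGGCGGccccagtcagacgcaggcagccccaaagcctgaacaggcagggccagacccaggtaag
PLIN3, chr19:4867618-4867917, minus strand: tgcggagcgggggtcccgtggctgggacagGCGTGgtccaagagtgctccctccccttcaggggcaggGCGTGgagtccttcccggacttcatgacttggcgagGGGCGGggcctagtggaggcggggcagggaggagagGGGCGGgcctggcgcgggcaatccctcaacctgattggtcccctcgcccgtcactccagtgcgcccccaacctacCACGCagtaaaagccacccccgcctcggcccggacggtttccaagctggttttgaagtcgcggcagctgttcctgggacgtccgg

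The G0S2 window held 1 TATAA, the core of a TATA box, which began 28 bases before the start, and 4 copies of GCGTG, one of the core forms of the hypoxia response element. The PNPLA2 window held neither. It held 1 GGGCGG, a GC box, and 1 AGGTCA, the half-site of nuclear receptors such as the PPARs, on the opposite strand. The PLIN3 window held 2 GGGCGG and 3 GCGTG. Over 34943 promoter windows of this length, TATAA was found in 20.5%, GCGTG in 36.5%, GGGCGG in 44.9% and AGGTCA in 13.8%. None of the 3 windows held ACGTG (21.4% of all windows), the E-box CACGTG, which contains ACGTG (7.23%), the FOXO motif GTAAACA (3.42%) or the AP-1 motif TGANTCA (7.72%). A match is a run of letters and says nothing of binding, and promoter windows of 6 of the 9 genes were searched.

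Among inhibitors of ATGL, G0S2 stood at 11.9, 9.60 and 12.1 TPM in the 24 h controls and at 129, 124 and 149 TPM in the knockdown. Levels at 72 h were 23.9, 24.4 and 23.0 TPM in the controls and 4.05, 1.95 and 1.54 TPM in the overexpressing cells. All 3 knockdown libraries lay above every other library, and all 3 overexpression libraries below every other library. The mean was 11.9-fold higher in the knockdown, at 134 ± 13.4 against 11.2 ± 1.41 TPM (SD, n = 3), and the log2 fold change was 3.47 (SE 0.211, limma adjusted p = 2.82e-07). In bulk RNA, fewer cells with a transcript and less of it per cell cannot be told apart. With overexpression the mean was 9.47-fold lower, at 2.51 ± 1.35 against 23.8 ± 0.743 TPM, with a log2 fold change of -2.88 (SE 0.211, limma adjusted p = 1.73e-06). Replicate 1 of the overexpressing cells held the highest G0S2 level of that group and the lowest mitochondrial share of the group, 37.3% against 47.4% and 45.8%. Without that library the log2 fold change was -3.18; the part of the mitochondrial share in this value was not tested. Rescaled libraries gave log2 fold changes of 2.98 and -2.89. The overexpression effect differed from the knockdown effect by -6.35 on the log2 scale (SE 0.298, limma adjusted p = 4.66e-08). G0S2 lies inside the span of the antisense gene HSD11B1-AS1, which reached at most 0.0914 TPM.

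HILPDA (chromosome 7, 128455849 to 128458418, plus strand), the other inhibitor, did not share the pattern of G0S2. It stood at 10.1, 9.32 and 12.7 TPM in the 24 h controls and at 10.8, 10.4 and 9.99 TPM in the knockdown, and the groups overlapped. After 72 h the levels were 15.8, 12.7 and 13.7 TPM in the controls and 20.0, 23.7 and 23.9 TPM with overexpression, where all 3 libraries lay above every control. The knockdown gave a log2 difference of -0.03 (95% interval -0.286 to 0.227, limma adjusted p = 0.840), and with rescaled libraries it fell, with -0.50 (limma adjusted p = 0.00198). With overexpression HILPDA rose 1.60-fold (log2 fold change 0.64, SE 0.115, limma adjusted p = 0.000833). The effects on HILPDA differed between the manipulations by 0.67 on the log2 scale (SE 0.163, limma adjusted p = 0.00404), and by 1.10 with rescaled libraries (limma adjusted p = 8.75e-05). HILPDA shares its span with 2 long non-coding genes on the same strand, which reached at most 0.660 and 0.383 TPM.

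The make-up of the inhibitor pair therefore differed between groups, as a description of TPM shares within each library. G0S2 made up 48.9% to 54.2% of the summed G0S2 and HILPDA transcripts in the 24 h controls and 92.3% to 93.7% in the knockdown. It made up 60.2% to 65.8% in the 72 h controls and 6.05% to 16.8% in the overexpressing cells. HILPDA was thus the more abundant inhibitor transcript in every overexpression library, and G0S2 in every knockdown and every 72 h control library; the 24 h controls were close to even.

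Among the lipases, PNPLA2 stood at 72.3, 55.0 and 70.9 TPM in the 24 h controls and at 30.2, 31.4 and 32.2 TPM in the knockdown. The later controls held 65.8, 63.9 and 65.5 TPM, and the overexpressing cells 178, 155 and 165 TPM. No knockdown library reached a control, and no overexpression library came down to one. The lipase transcript fell 2.11-fold in the knockdown, from 66.0 ± 9.60 to 31.3 ± 1.04 TPM (log2 fold change -1.04, SE 0.0961, limma adjusted p = 4.93e-06, n = 3). With overexpression the mean was 2.55-fold higher, at 166 ± 11.6 against 65.1 ± 1.05 TPM (log2 fold change 1.33, SE 0.0961, limma adjusted p = 1.58e-06). Rescaled libraries gave -1.55 and 1.29. The effects differed by 2.38 on the log2 scale (SE 0.136, limma adjusted p = 1.66e-07). An unnamed antisense long non-coding gene overlaps the end of PNPLA2 and reached at most 0.907 TPM.

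LIPE (chromosome 19, 42401497 to 42427388, minus strand), which encodes hormone-sensitive lipase, was near the lower limit of the table, between 0.262 and 1.17 TPM. It stood at 0.262, 0.370 and 0.312 TPM in the 24 h controls and at 0.663, 0.427 and 0.582 TPM in the knockdown. It stood at 0.590, 0.569 and 0.590 TPM in the 72 h controls and at 1.17, 0.910 and 0.716 TPM with overexpression. All libraries of each manipulated group lay above those of their control. Fitted without the filter on low values, LIPE was higher by 0.24 in the knockdown and by 0.28 with overexpression on the log2(TPM + 1) scale (limma adjusted p = 0.0416 and 0.0241). In the group means LIPE was thus below PNPLA2 in all 4 groups, and neither manipulation brought it to the level of the other lipase. LIPE lies within the antisense gene LIPE-AS1, which reached at most 0.204 TPM.

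The transcript ratio of G0S2 to PNPLA2 within each library set the groups apart without overlap. It was 0.165, 0.175 and 0.171 in the 24 h controls and 4.28, 3.93 and 4.63 in the knockdown, where the inhibitor transcript outnumbered that of the lipase. It was 0.363, 0.382 and 0.350 in the 72 h controls and 0.0228, 0.0126 and 0.00932 in the overexpressing cells. In those cells there were 43.9 to 107 PNPLA2 transcripts for each G0S2 transcript, against 2.62 to 2.86 in their controls. Adding HILPDA to the inhibitors gave ratios of 4.26 to 4.94 in the knockdown against 0.305 to 0.350 in its controls, and 0.135 to 0.166 with overexpression against 0.560 to 0.603. As a ratio within a library it does not change with the scaling of libraries. No test is given for it, since the genes were paired with their changes known, and it compares RNA only.

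**Figure D1:**
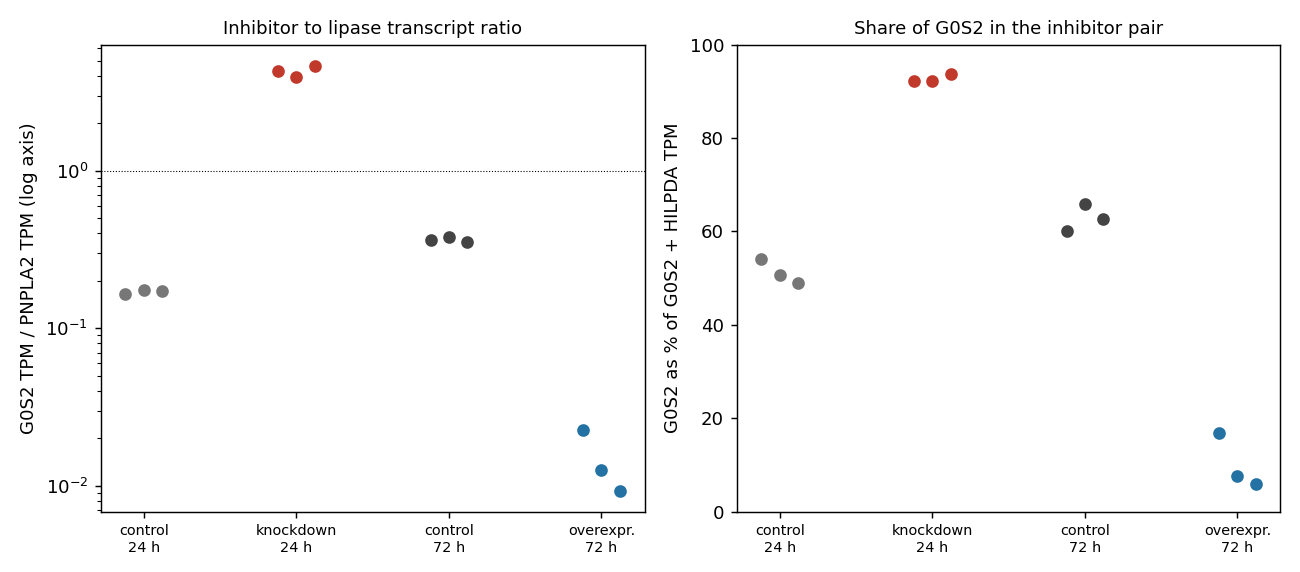
Left, G0S2 TPM over PNPLA2 TPM in each library on a log axis (dotted line: equal levels); right, G0S2 as a percentage of summed G0S2 and HILPDA TPM; points are libraries, 3 per group. Knockdown libraries sit at 3.93 to 4.63 on the left and the overexpression libraries at 0.00932 to 0.0228, on either side of both control groups.

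ABHD5 (chromosome 3, 43690108 to 43734371, plus strand), the coactivator of ATGL, stood at 2.17, 2.59 and 2.34 TPM in the 24 h controls and at 3.09, 2.88 and 2.66 TPM in the knockdown. Levels at 72 h were 4.54, 4.59 and 4.90 TPM in the controls and 2.16, 2.75 and 2.85 TPM with overexpression. Knockdown libraries lay just above their controls, and overexpression libraries well below theirs. The knockdown difference of 0.20 on the log2 scale did not pass (95% interval 0.0178 to 0.388, limma adjusted p = 0.0525) and its sign turned with rescaled libraries (-0.17, limma adjusted p = 0.0654). With overexpression ABHD5 fell 1.81-fold (log2 fold change -0.67, SE 0.0832, limma adjusted p = 7.06e-05), while the transcript of the lipase it activates rose. In that group ABHD5 stood at 1.22% to 1.78% of the PNPLA2 level, against 6.90% to 7.48% in the controls. In the knockdown it stood at 8.24% to 10.2% of the PNPLA2 level, against 3.00% to 4.72%. The end of ABHD5 overlaps ANO10 on the opposite strand, which reached at most 0.655 TPM.

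Of the enzymes of triglyceride synthesis, DGAT1 (chromosome 8, 144314584 to 144326910, minus strand), an acyltransferase of the endoplasmic reticulum, stood at 11.3, 9.61 and 12.1 TPM in the 24 h controls and at 8.30, 7.66 and 10.0 TPM in the knockdown. At 72 h it stood at 16.4, 16.1 and 17.5 TPM in the controls and at 17.9, 19.1 and 18.9 TPM with overexpression. The groups overlapped at 24 h, where DGAT1 fell 1.27-fold (log2 fold change -0.31, SE 0.0976, limma adjusted p = 0.0158). The fall was larger with rescaled libraries (-0.78, limma adjusted p = 4.86e-05), after quantile normalisation (-0.73), in protein-coding nuclear genes alone (-0.58) and with the trend on length and GC content removed (-0.46). This call was lost when control replicate 3 (log2 fold change -0.25, limma adjusted p = 0.0634), knockdown replicate 1 (-0.29, 0.0514) or knockdown replicate 2 (-0.24, 0.0646) was left out, and in the 6 libraries of the comparison alone (-0.31, 0.0599). With overexpression the log2 difference of 0.15 did not pass (95% interval -0.0659 to 0.369, limma adjusted p = 0.214), although the 3 libraries lay above every control. The end of DGAT1 overlaps HSF1 on the opposite strand by 137 bases, HSF1 reached 18.9 to 38.7 TPM, and the sources used here do not say if the counting used strand.

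DGAT2 (chromosome 11, 75759512 to 75801535, plus strand), the unrelated second enzyme of this step, was lower than DGAT1 in every library, by 5.48-fold to 8.53-fold. It stood at 1.70, 1.49 and 1.70 TPM in the 24 h controls and at 1.39, 1.40 and 1.51 TPM in the knockdown, a difference that did not pass (log2 -0.11, 95% interval -0.231 to 0.0114, limma adjusted p = 0.1003). With rescaled libraries DGAT2 fell in the knockdown (log2 fold change -0.43, limma adjusted p = 0.000126). At 72 h it rose from 2.11, 1.96 and 2.05 TPM in the controls to 2.67, 2.45 and 2.58 TPM with overexpression, with no overlap (log2 fold change 0.23, SE 0.0543, limma adjusted p = 0.00458). The effects of the manipulations differed for both enzymes, by 0.47 for DGAT1 (limma adjusted p = 0.0125) and 0.34 for DGAT2 (limma adjusted p = 0.00270) on the log2 scale, and by 0.89 and 0.63 with rescaled libraries.

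Among coat proteins, PLIN3 (TIP47; chromosome 19, 4838341 to 4867694, minus strand), a perilipin that also occurs free in the cytosol, stood at 12.5, 11.2 and 13.6 TPM in the 24 h controls and at 19.9, 19.8 and 21.7 TPM in the knockdown. At 72 h it stood at 16.9, 15.6 and 16.5 TPM in the controls and at 11.7, 11.4 and 11.9 TPM with overexpression. The groups did not overlap at either time. PLIN3 rose 1.65-fold in the knockdown (log2 fold change 0.68, SE 0.0687, limma adjusted p = 9.52e-06), of which 0.20 was left with rescaled libraries (limma adjusted p = 0.0273). It fell 1.40-fold with overexpression (log2 fold change -0.45, SE 0.0687, limma adjusted p = 0.000292). The difference between the effects was -1.13 (SE 0.0972, limma adjusted p = 2.94e-06), and -0.69 with rescaled libraries (limma adjusted p = 0.000126).

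PLIN2 (adipophilin; chromosome 9, 19108375 to 19149290, minus strand), known as the perilipin of droplets in most cells outside adipose tissue, was listed at only 0.123 to 0.282 TPM over the 12 libraries. It stood at 0.144, 0.148 and 0.123 TPM in the 24 h controls and at 0.282, 0.266 and 0.254 TPM in the knockdown. It stood at 0.199, 0.234 and 0.200 TPM in the 72 h controls and at 0.179, 0.157 and 0.126 TPM with overexpression. PLIN2 was listed as the lowest of the 9 genes in all 4 groups. The sources used here do not name the quantifier or the annotation, so the listed level could not be checked and may be wrong. Knockdown libraries were 1.93-fold above their controls in the mean and overexpression libraries 1.37-fold below theirs, without overlap, but at this level no change can be weighed against an unknown depth. Fitted without the filter, the log2(TPM + 1) differences were 0.16 and -0.07 (limma adjusted p = 0.000140 and 0.0197).

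**Figure D2:**
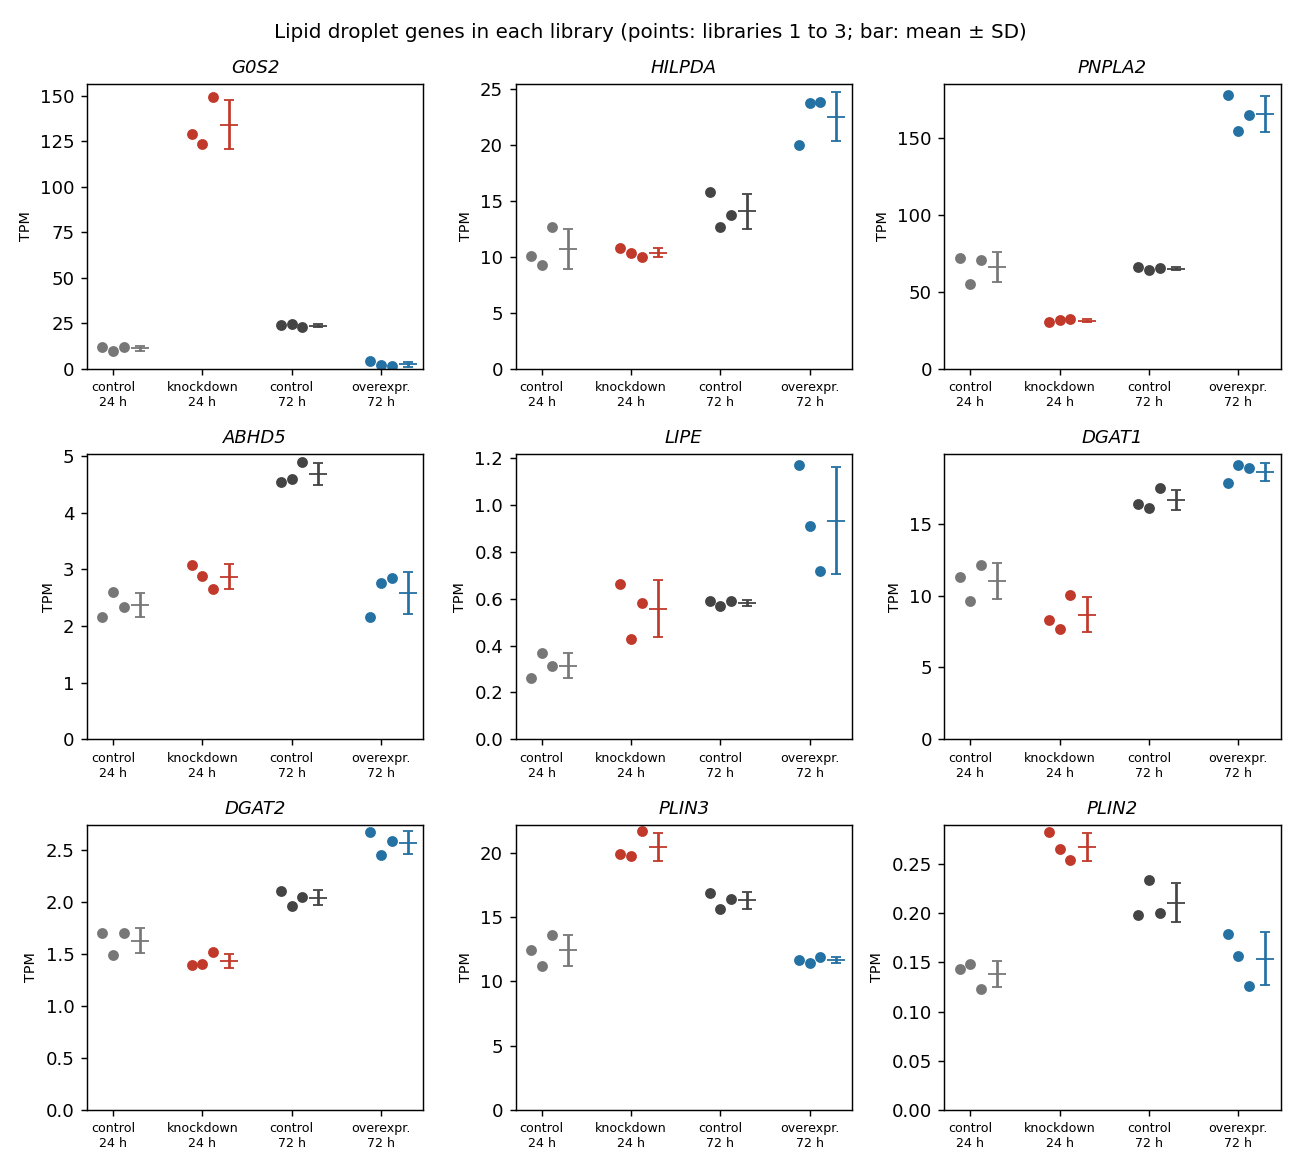
TPM of each of the 9 genes in each library, 1 panel per gene on its own axis from 0; points are libraries and bars the mean ± SD of 3. G0S2 runs from 1.54 to 149 TPM and PNPLA2 from 30.2 to 178 TPM, with the knockdown and overexpressing cells at opposite ends. The control groups overlap in PNPLA2 but not in G0S2. PLIN2 and LIPE lie near or below 1 TPM.

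In counts, 2 of the 7 tested genes rose in the knockdown (G0S2 and PLIN3), 2 fell (PNPLA2 and DGAT1) and 3 did not pass, where 65.6% of all tested genes passed in either direction (53.6% higher and 11.9% lower). With overexpression 3 rose (PNPLA2, HILPDA and DGAT2), 3 fell (G0S2, PLIN3 and ABHD5) and DGAT1 did not pass, where 55.4% of all tested genes passed (29.9% higher and 25.5% lower). The groups did not overlap in 70.8% of all tested genes in the knockdown and in 63.1% with overexpression. These shares are high, and the counts of droplet genes do not stand out from them. The median log2 difference of the 7 genes was -0.03 in the knockdown, against 0.35 over all tested genes, and 0.15 with overexpression, against 0.03. The difference between the effects passed for all 7, with 4 higher and 3 lower, where 65.7% of all tested genes passed (20.1% higher and 45.6% lower). After rescaling, 2 rose and 4 fell in the knockdown, where 59.3% of all tested genes passed (29.4% higher and 29.9% lower). With overexpression 3 rose and 3 fell, where 56.4% passed (27.8% higher and 28.6% lower), and for the difference between the effects 4 were higher and 3 lower, where 63.9% passed (32.2% higher and 31.7% lower).

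Between the control groups, 6 of the 7 genes were higher at 72 h than at 24 h and PNPLA2 did not pass, where 61.0% of all tested genes passed (52.9% higher and 8.10% lower) and the groups did not overlap in 69.2%. This comparison shares its 24 h controls with the knockdown comparison and its 72 h controls with the overexpression comparison, and time on the drug cannot be told apart from any other difference between the control populations. G0S2 was 2.12-fold higher at 72 h (log2 fold change 1.02, SE 0.211, limma adjusted p = 0.00177), and ABHD5 was 1.98-fold higher (log2 fold change 0.76, SE 0.0832, limma adjusted p = 2.98e-05). PNPLA2 differed by -0.01 (95% interval -0.224 to 0.204, limma adjusted p = 0.935). With rescaled libraries G0S2 and ABHD5 rose (0.61 and 0.42), PNPLA2 fell (-0.45, limma adjusted p = 0.00688), and HILPDA, PLIN3, DGAT1 and DGAT2 did not pass, where 54.1% of all tested genes passed (27.9% higher and 26.3% lower).

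**Figure D3:**
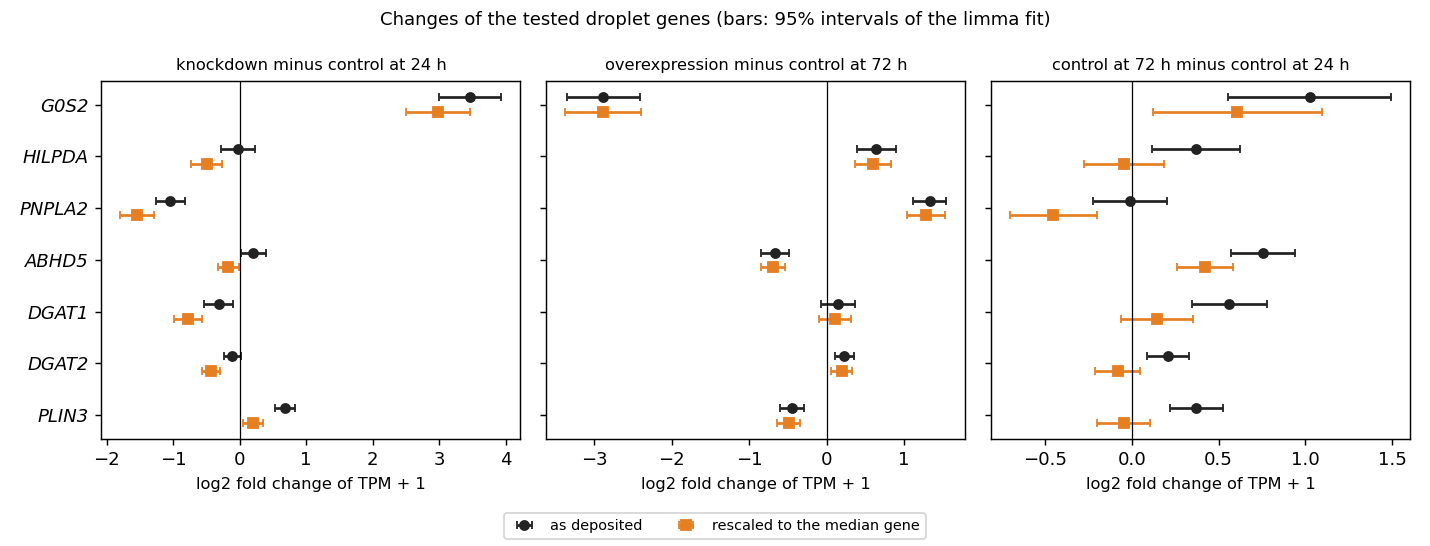
Log2 fold change of TPM + 1 for the 7 tested genes in 3 comparisons, as deposited (circles) and rescaled to the median gene (squares); bars are 95% intervals of the limma fit. G0S2 and PNPLA2 lie on opposite sides of 0 in the knockdown (3.47 and -1.04) and with overexpression (-2.88 and 1.33) under both scalings.

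The order of levels among the 9 genes followed these changes. In the 24 h controls PNPLA2 led at 66.0 TPM, and PLIN3, G0S2, DGAT1 and HILPDA followed between 12.4 and 10.7 TPM with overlapping libraries, ahead of ABHD5, DGAT2, LIPE and PLIN2. In the knockdown G0S2 led, followed by PNPLA2 and PLIN3, each without overlap with the next, and then by HILPDA and DGAT1, whose libraries overlapped. In the 72 h controls PNPLA2 and G0S2 led, and DGAT1, PLIN3 and HILPDA followed with overlap from neighbour to neighbour. With overexpression PNPLA2 led HILPDA, DGAT1 and PLIN3, each without overlap with the next, and G0S2 had dropped to the level of ABHD5 and DGAT2, with which its libraries overlapped in order. The summed TPM of the 9 genes was 99.3 to 126 in the 24 h controls, 198 to 228 in the knockdown, 140 to 146 in the 72 h controls and 217 to 238 with overexpression.

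Other genes of neutral lipid metabolism were read from lists of related genes, some of which share members. Over all tested genes 53.6% rose and 11.9% fell in the knockdown (29.4% and 29.9% rescaled), and 29.9% rose and 25.5% fell with overexpression, and each count of a list is to be read against these shares. For genes named from the lists, log2 fold changes in the knockdown are followed by the value with rescaled libraries. Genes given for a single manipulation may also have passed in the other. Counts and medians include genes that passed the filter on low values through 1 group alone, and their calls against that group are no support. These were PLIN5 and FITM1 through the overexpressing cells, VNN1 and CA12 through the knockdown, and SLC27A2 and SLC25A20 through the 72 h controls. Of 16 tested genes of droplet coat, assembly and fusion, 7 rose and 6 fell in the knockdown (median log2 0.07), against 3 and 9 with rescaled libraries (median -0.26), and 8 rose and 3 fell with overexpression (median 0.14). TMT1A, a methyltransferase found on droplets, fell from 5.07 ± 0.539 to 1.05 ± 0.288 TPM in the knockdown (log2 fold change -1.57, -1.96 rescaled) and rose from 4.25 ± 0.181 to 8.71 ± 0.586 TPM with overexpression (0.89). PCYT1A, the rate-limiting enzyme of phosphatidylcholine synthesis, rose in the knockdown from 3.88 ± 0.371 to 8.58 ± 0.526 TPM (0.97, 0.55 rescaled). LDAF1, a partner of seipin in droplet assembly, fell in both comparisons, from 6.10 ± 0.196 to 3.83 ± 0.128 TPM (-0.55, -0.99 rescaled) and from 11.3 ± 0.575 to 7.08 ± 1.00 TPM (-0.61). BSCL2, which encodes seipin and overlaps a read-through gene on the same strand, also fell in both comparisons. With overexpression it fell from 23.9 ± 2.22 to 16.4 ± 2.89 TPM (-0.53), and in the knockdown from 22.9 ± 3.78 to 17.5 ± 0.922 TPM (-0.35, -0.84 rescaled). VMP1, an endoplasmic reticulum scramblase, rose with overexpression from 4.43 ± 0.0659 to 9.13 ± 0.108 TPM (0.90). In the knockdown VMP1 rose as deposited (0.18) and fell with rescaled libraries (-0.23). RAB7A, a small GTPase of late endosomes, rose in the knockdown from 7.30 ± 0.441 to 13.4 ± 0.507 TPM (0.79, 0.33 rescaled).

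Of 10 tested genes of triglyceride and sterol ester synthesis other than the DGATs, 8 rose and 0 fell in the knockdown (median log2 0.56, against 0.35 over all tested genes) as deposited, and 6 rose and 3 fell with rescaled libraries. With overexpression 1 rose and 6 fell (median -0.19, against 0.03). With AGR2 overexpressed, SOAT1, which makes cholesteryl ester, fell from 5.38 ± 0.183 to 2.49 ± 0.145 TPM (a log2 fold change of -0.87), and the glycerol-phosphate acyltransferase GPAT4 from 6.22 ± 0.132 to 4.49 ± 0.223 TPM (-0.40). In the knockdown SOAT1 (0.90, 0.52 rescaled) and GPAT4 (0.54, 0.15 rescaled) rose. LPIN3, a phosphatidate phosphatase, rose with overexpression from 3.71 ± 0.208 to 7.22 ± 0.226 TPM (0.80). The acyltransferase AGPAT1 fell with overexpression from 41.3 ± 0.469 to 36.3 ± 1.35 TPM (-0.18), and in the knockdown it rose from 27.5 ± 1.35 to 33.7 ± 1.97 TPM (0.28) as deposited but fell with rescaled libraries (-0.21).

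Of 8 other tested lipid hydrolases, not all of which act on neutral lipid, 4 rose and 2 fell in the knockdown (median log2 0.42), against 4 and 3 with rescaled libraries (median 0.11), and 1 rose and 4 fell with overexpression (median -0.20). LIPH, a phosphatidic acid-selective lipase, moved as PNPLA2 did: it fell in the knockdown from 6.13 ± 0.531 to 4.55 ± 0.204 TPM (log2 fold change -0.36, -0.80 rescaled) and rose with overexpression from 10.8 ± 0.282 to 18.8 ± 1.61 TPM (0.74). The carboxylesterase CES2 fell with overexpression from 32.7 ± 1.70 to 22.2 ± 1.22 TPM (-0.54). Of 13 tested genes of fatty acid uptake, binding and activation, 5 rose and 4 fell in the knockdown (median 0.10), against 3 and 7 with rescaled libraries (median -0.22), and 3 rose and 7 fell with overexpression (median -0.27). FABP5, a fatty acid-binding protein with several processed pseudogenes that could share its reads, rose in the knockdown from 11.7 ± 1.42 to 50.6 ± 2.61 TPM (2.03, 1.55 rescaled). With overexpression FABP5 fell (-0.85). The acyl-CoA synthetases ACSL4, from 5.23 ± 0.222 to 1.74 ± 0.248 TPM (-1.19), and ACSL3, from 13.9 ± 0.443 to 7.34 ± 1.12 TPM (-0.85), fell with overexpression. ACSL4 rose in the knockdown (0.77, 0.39 rescaled). The muscle-type binding protein FABP3 rose with overexpression from 6.42 ± 0.0460 to 15.3 ± 2.09 TPM (1.13). FABP3 fell in the knockdown from 4.81 ± 0.334 to 0.674 ± 0.153 TPM (-1.80, -2.16 rescaled). The fatty acid transporter SLC27A4 rose in the knockdown from 3.52 ± 0.497 to 7.63 ± 0.421 TPM (0.94, 0.52 rescaled), and DBI, which binds acyl-CoA, fell from 67.7 ± 4.82 to 51.9 ± 0.404 TPM (-0.38, -0.88 rescaled). With overexpression SLC27A4 fell (-0.36) and DBI rose (0.39).

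Of 20 tested genes of fatty acid oxidation, 10 rose and 2 fell in the knockdown (median log2 0.26, below the 0.35 of all tested genes) as deposited, and 4 rose and 10 fell with rescaled libraries. With overexpression 6 rose and 6 fell (median 0.04). ACADVL, the very long-chain acyl-CoA dehydrogenase, rose with overexpression from 120 ± 4.41 to 231 ± 17.7 TPM (0.93). CPT1B, a carnitine palmitoyltransferase, rose from 5.27 ± 0.0893 to 28.9 ± 4.42 TPM (2.24), and it shares its span with the read-through gene CHKB-CPT1B, so the origin of its reads is uncertain. ETFB, an electron carrier of this pathway, rose from 12.3 ± 0.405 to 19.2 ± 5.51 TPM (0.57). In the knockdown ACAA1, a peroxisomal thiolase, fell from 6.73 ± 0.305 to 3.83 ± 0.115 TPM (-0.68, -1.12 rescaled). CPT2 rose from 7.11 ± 0.960 to 12.1 ± 1.10 TPM (0.69, 0.23 rescaled with a limma adjusted p of 0.0479). The rises of ECI2 (0.61) and ACADM (0.52) did not pass with rescaled libraries (0.18 and 0.10, limma adjusted p = 0.0562 and 0.142).

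**Figure D4:**
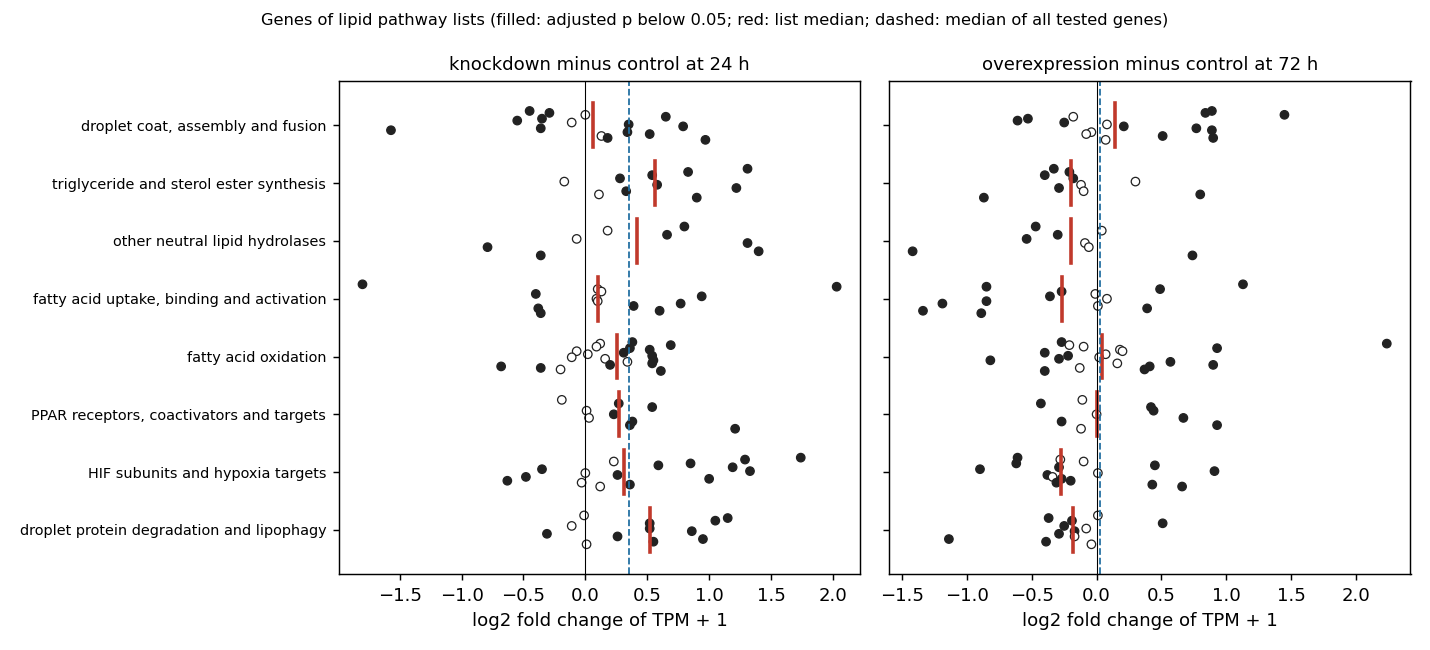
Log2 fold change of TPM + 1 of each tested gene in 8 lists of lipid-related genes, in the knockdown (left) and with overexpression (right); filled points passed limma, red bars are list medians and the dashed line is the median of all tested genes (0.35 and 0.025). Rises and falls are mixed in most lists, and the medians lie between 0.07 and 0.56 on the left and between -0.28 and 0.14 on the right. The points include PLIN5 and FITM1, which passed the filter on low values only through the overexpressing cells. They also include VNN1 and CA12, which passed it only through the knockdown.

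Lists of PPAR and HIF regulators together with their targets were read in the same way. RNA levels do not measure the activity of a regulator, and control of the droplet genes by them was not tested. The rises counted below for the knockdown include VNN1 in the PPAR list and CA12 in the HIF list. Both entered the tests through their knockdown levels alone, so these calls are no support. Of 9 tested PPAR receptors, coactivators and targets, 6 rose and 0 fell in the knockdown (median log2 0.27), against 2 and 4 with rescaled libraries, and 4 rose and 2 fell with overexpression (median 0.00). RXRA, the partner receptor of the PPARs, rose with overexpression from 5.29 ± 0.0565 to 7.54 ± 0.105 TPM (0.44), and CPT1A fell from 5.67 ± 0.200 to 4.56 ± 0.516 TPM (-0.27). RXRB rose in the knockdown as deposited (0.23) and fell with rescaled libraries (-0.26). Of 16 tested HIF subunits and hypoxia targets, the group of genes to which HILPDA is assigned, 9 rose and 3 fell in the knockdown (median 0.31), against 6 and 7 with rescaled libraries (median -0.08), and 4 rose and 8 fell with overexpression (median -0.28). HIF1A, the oxygen-regulated subunit, rose in the knockdown from 4.33 ± 0.818 to 16.7 ± 1.54 TPM (1.74, 1.30 rescaled) and fell with overexpression from 13.1 ± 0.0278 to 8.29 ± 1.60 TPM (-0.61). The glucose transporter SLC2A1 fell in the knockdown from 36.6 ± 1.96 to 23.3 ± 1.44 TPM (-0.63, -1.13 rescaled), and by less with overexpression (-0.20). EPAS1 rose in the knockdown from 3.02 ± 0.400 to 8.81 ± 0.423 TPM (1.29, 0.88 rescaled). The secreted peptide ADM fell with overexpression from 47.3 ± 3.41 to 24.9 ± 2.86 TPM (-0.90), and also in the knockdown (-0.35, -0.85 rescaled). VHL rose with overexpression from 17.4 ± 0.739 to 24.1 ± 0.643 TPM (0.45), and its rise in the knockdown (0.59) did not pass with rescaled libraries (0.11). VEGFA rose in both, from 8.26 ± 1.18 to 22.2 ± 1.29 TPM (1.33, 0.86 rescaled) and from 18.7 ± 0.626 to 36.3 ± 3.64 TPM (0.91).

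Of 12 tested genes of droplet protein degradation and lipophagy, 8 rose and 1 fell in the knockdown (median log2 0.52), against 4 and 5 with rescaled libraries, and 1 rose and 7 fell with overexpression (median -0.18). FAF2 (UBXD8), which brings the ATPase p97 to droplets, rose in the knockdown from 5.07 ± 0.407 to 12.4 ± 0.448 TPM (1.15, 0.70 rescaled) and fell with overexpression from 9.46 ± 0.147 to 7.15 ± 1.25 TPM (-0.37). VCP, which encodes p97, rose in the knockdown from 58.1 ± 1.81 to 121 ± 4.44 TPM (1.05, 0.54 rescaled). The chaperone HSPA8, a gene with processed pseudogenes, rose from 921 ± 59.4 to 1776 ± 69.2 TPM in the knockdown (0.95, 0.44 rescaled) and fell from 1193 ± 38.8 to 542 ± 8.51 TPM with overexpression (-1.14). MARCHF6, a ubiquitin ligase of the endoplasmic reticulum, rose with overexpression from 17.3 ± 0.395 to 25.3 ± 4.49 TPM (0.51). TFE3, a transcription factor of lysosomal genes, fell with overexpression (-0.39) and rose in the knockdown as deposited (0.55), which did not pass with rescaled libraries (0.08).

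The profile of G0S2 over the 12 libraries was set against 5490 protein-coding genes with a mean of at least 5 TPM, by the root mean square difference of log2(TPM + 1) after centring each gene on its own mean. The nearest was VIM, the intermediate filament vimentin, at 0.459, with means of 4.29, 54.3, 19.0 and 1.07 TPM in the 24 h controls, knockdown, 72 h controls and overexpressing cells. The metallothioneins MT2A (0.543) and MT1A (0.588), the BMP antagonist NOG (0.645) and the AP-1 subunit FOSL1 (0.661) came next, and metallothionein genes are alike enough to share reads. MT1A reached the mean of 5 TPM only through the knockdown, at 32.8 TPM. It stood at 4.45, 3.60 and 0.393 TPM in the 24 h controls, 72 h controls and overexpressing cells. G0S2 itself varied by 1.94 about its mean on this measure, and the median ranked gene lay at a distance of 1.93. Likeness over 4 groups says nothing of shared control.

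**Figure D5:**
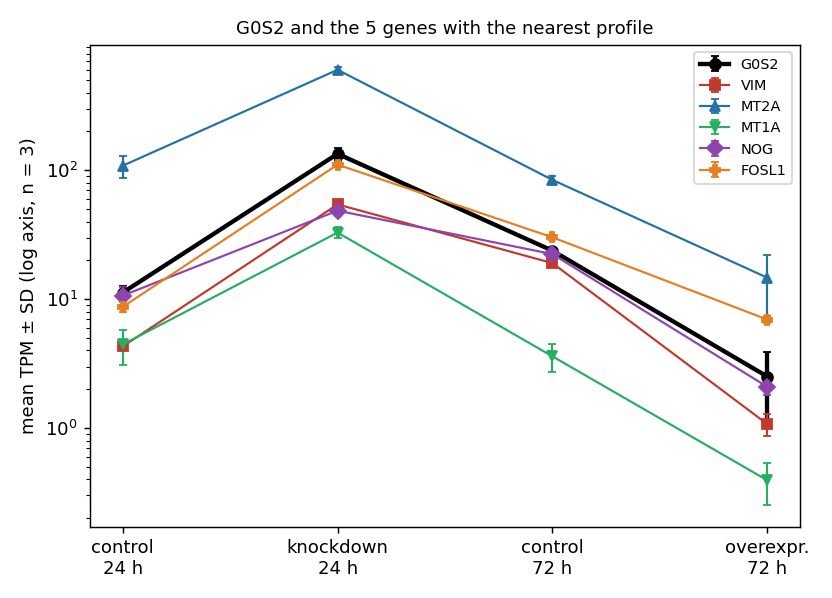
Mean TPM ± SD (n = 3, log axis) of G0S2 and of the 5 genes with the smallest root mean square distance from its profile, over the 4 groups. All 6 genes are highest in the knockdown and lowest in the overexpressing cells, G0S2 at 134 and 2.51 TPM and VIM at 54.3 and 1.07 TPM. Because the 5 genes were picked for nearness to G0S2, this shared order is no separate result.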

How the data were processed

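RNA sequencing of PC9 cells gave 12 libraries, 3 for each of 4 groups taken from the sample titles. Reads were aligned with STAR 2.7.8a to hg38/GRCh38, per the submitters' processing notes; the sources used here name no quantifier, annotation release or strandedness. TPM values came as 1 table from the authors, deposited with 30225 genes, and each library summed to 1000000 TPM. The depth of each library is unknown, so no interval based on counts is given. Gene coordinates come from that table (1 was subtracted from each stop). No pair of replicates shared more than 2 identical non-zero values.

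The 15721 genes that reached 1 TPM in 3 or more libraries were fitted as log2(TPM + 1) in limma 3.58.1 under R 4.3.3, with 4 group means over all 12 libraries (8 residual degrees of freedom), moderated with an intensity trend, two-sided, and adjusted by Benjamini-Hochberg over all tested genes at 0.05. With 3 libraries against 3, the smallest permutation p is 0.1. Alternatives were other pseudocounts (0.1 and 0.5) and filters, median-ratio rescaling of each library, quantile normalisation, nuclear protein-coding genes alone, removal of trends on transcript length and GC content (GENCODE release 29, 93.5% of tested genes), the 6 compared libraries alone, a replicate block, robust shrinkage and libraries left out. The procedure was tested on simulated data. The 9 genes, the lists and the alternatives were chosen with earlier results of these data known. From each list up to 4 genes with the largest change were named per manipulation, if they passed, reached a mean of 5 TPM and showed no overlap between groups; some genes that this rule names are not reported here. Promoter sequences are RefSeq's. Summaries used pandas 2.3.3 and numpy 2.4.6, and figures matplotlib 3.10.9, under Python 3.11.15.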

Additional observations from a re-analysis of the deposited data

How the results depend on the processing

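The changes of G0S2 and PNPLA2 kept their direction and passed in the knockdown and with overexpression under all 18 alternatives run for each. G0S2 ranged from 2.98 to 3.57 and from -3.31 to -2.68 on the log2 scale, and PNPLA2 from -1.55 to -0.98 and from 1.17 to 1.40. PLIN3 also passed throughout, from 0.20 to 0.74 and from -0.57 to -0.43, as did ABHD5 (-0.84 to -0.58, 17 alternatives) and HILPDA (0.57 to 0.73) with overexpression. The difference between the effects passed under every alternative run for the 7 tested genes. Of these genes 4 passed in the knockdown, against 7 after quantile normalisation and 7 with the length and GC trend removed. Between the control groups 6 passed, against 3 with median-ratio rescaling and 3 after quantile normalisation. ABHD5 in the knockdown turned to -0.18 after quantile normalisation and to -0.39 with the length and GC trend removed. Between the control groups, rescaling turned PLIN3 to -0.05, HILPDA to -0.04 and DGAT2 to -0.08, and DGAT2 stood at -0.09 after quantile normalisation and at -0.37 with the trend removed; the cause was not tested. ABHD5 in the knockdown (0.20) passed without control replicate 2 (0.25) or knockdown replicate 3 (0.24), and DGAT2 with overexpression (0.23) did not pass after quantile normalisation (0.14). HILPDA between the control groups (0.37) did not pass without control replicate 1 at 24 h (0.34), control replicate 2 at 24 h (0.28) or control replicate 1 at 72 h (0.29). Of all tested genes, 10308 passed in the knockdown, 8703 with overexpression, 9594 between the control groups and 10326 for the difference of effects, and with the filter at 5 TPM, which tests 8499 genes, 6186, 5097, 5839 and 6126 did. Replicate numbers did not pair the compared libraries: in the groups compared directly, same-numbered libraries correlated in their deviations from -0.159 to 0.062. In the 24 h controls and the overexpressing cells, which no comparison sets against each other directly, all 3 such correlations were above 0.1 (0.419, 0.22 and 0.126). A replicate block changed 0 calls of the 7 genes, and the counts that passed under the block were 4, 6, 6 and 7 in the knockdown, overexpression, control and effect comparisons, as without it. Depth is unknown and limits PLIN2 and LIPE most.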

Other observations

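Markers of adipocytes were mostly at or near 0 but differed between groups. Of 12 markers 10 were in the table and 4 were tested; LEP, CIDEC, CIDEA, LPL and AQP7 stayed below 0.1 TPM on average in every group. The 4 tested fell in the knockdown, and 3 rose and 1 fell with overexpression, by limma at an adjusted p below 0.05, where 11.9% of all tested genes fell in the knockdown and 29.9% rose with overexpression. The summed level of the 10 markers was 13.1 to 17.7 TPM in the 24 h controls and 3.88 to 4.95 TPM in the knockdown, and 11.6 to 12.3 TPM in the 72 h controls and 133 to 196 TPM with overexpression. With overexpression CFD, the complement protease adipsin, made up most of that sum, at 6.59 ± 0.342 TPM in the 72 h controls and 110 ± 24.1 TPM in the overexpressing cells (log2 fold change 3.84), and ADIRF rose from 1.18 ± 0.0742 to 45.2 ± 8.85 TPM (4.39). RBP4 was the 1 that fell with overexpression, from 2.94 ± 0.287 to 1.32 ± 0.159 TPM (-0.77). Among perilipins outside the 9 genes, PLIN4 rose from 1.22 ± 0.0446 to 3.14 ± 0.418 TPM (0.89) with overexpression and fell in the knockdown (-0.45). PLIN1 was below the filter and not tested, at 0.0733 ± 0.0516 TPM in the 72 h controls and 0.688 ± 0.0834 TPM with overexpression. PLIN5, at 0.226 ± 0.0653 TPM in the 72 h controls and 1.19 ± 0.122 TPM with overexpression, and FITM1, a droplet-forming protein of muscle, at 0.481 ± 0.230 and 3.03 ± 0.325 TPM, passed the filter on low values through the overexpressing cells. No test of them is given here, though the list counts and medians include them. These genes were singled out after their values were seen. Fibroblast markers were low, with 5 of 9 in the table and 1 at 1 TPM or more. Of 10 blood and endothelial markers 7 were in the table, and CD68, a lysosomal protein also made outside blood cells, was the main one, at 49.5 to 151 TPM, while PTPRC stayed below 0.1 TPM on average.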
